A study of Homo sapiens with 24 samples.

Results

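The genes described here are interferon-stimulated genes, a group whose transcripts accumulate when a cell senses interferon or viral nucleic acid. They were taken from a list of gene symbols, which was chosen with earlier results of these data known. All 39 symbols on the list matched a row of the count tables, so the group comprised 39 of 58721 Ensembl gene identifiers. The study measured polyadenylated RNA in A549 cells, an established human lung adenocarcinoma line, after loss or inhibition of MYBL2 and FOXM1, transcription factors of the cell cycle. RNA-seq was performed on 24 libraries in 7 groups. Cells of the siMYBL2 group (4 libraries) received siRNA against MYBL2, cells of the siFOXM1 group (4 libraries) received siRNA against FOXM1, and cells of the siControl group (4 libraries) received scrambled siRNA. Cells of the siBoth group (3 libraries) received both siRNAs, with their own scrambled control, siControl_Both (3 libraries). The siRNA concentration was given as 25 nM, delivered with DharmaFECT1. Cells of the FDI6 group (3 libraries) were treated with 20 μM FDI-6, a compound reported to keep FOXM1 from binding DNA, for 24 h. Their controls, control_FDI6 (3 libraries), carried a wild-type label with no siRNA named, and the study names DMSO as what FDI-6 was compared with. All groups rest on this 1 line, and no sample was given interferon or a virus.

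Interferons bind receptors whose JAK kinases phosphorylate STAT proteins. With IRF9 these form a complex that binds the interferon-stimulated response element (ISRE), a promoter sequence built of GAAA repeats that IRF-family factors also recognise. The induced products include sensors of viral RNA (DDX58, also called RIG-I, and IFIH1, also called MDA5), proteins that bind viral RNA or block its translation (the IFIT family), oligoadenylate synthetases (the OAS family), the MX GTPases, and the ubiquitin-like modifier ISG15 with its enzymes.

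Each library held 16487394 to 30140550 read pairs counted in genes, with at least 23065227 in the siRNA experiments and at most 21039750 in the compound experiment. Unaligned pairs made up 7.68% to 10.9% in siBoth and siControl_Both and 1.73% to 3.03% in all other libraries. The targeted genes fell as labelled. MYBL2 fell by 4.58 on the log2 scale after siMYBL2 and by 4.35 after siBoth, and FOXM1 fell by 3.38 after siFOXM1 and by 3.37 after siBoth. FOXM1 also fell by 0.73 after siMYBL2. Epithelial markers held the label of the line, with 5 of 5 detected and a summed level between 3814 and 10507 CPM over the 24 libraries (CPM is a gene's count scaled to a library total of 1000000). The study's methods call the replicates biological, but no source used here says whether they were separate cultures, so p-values measure the spread between these samples. In bulk RNA, a change in the number of expressing cells and a change in RNA per cell cannot be told apart.

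The promoters of the members were examined first, since the ISRE ties the group together outside the expression data. RefSeq promoter windows on GRCh38.p14, which run from 250 bases before to 50 bases after a start site, were found for 31 of the 39 members. No window was given for IFIT2, IFITM2, IRF7, MX2, OAS2, OASL, TRIM22 and USP18. An ISRE-like match, here GAAA, any 2 bases, then GAAA, on either strand and with overlaps allowed, lay in a window of 21 of these 31 genes (67.7%). Over all promoters the share was 4.38% of 27305 genes. The match was not in the windows of DDX58, HERC6, IFI35, IRF1, IRF9, OAS1, SAMD9L, STAT2, UBE2L6 and XAF1. Repeats of GAAA only 1 base apart were not searched for, so these windows cannot be said to lack an ISRE. The letters GAAACGAAA stand in windows of DDX58, OAS1 and XAF1, and GAAATGAAA in that of IFI35. A match is a description of letters and not a bound site. One window is shown for each of 5 members with a match and 1 without, because their genes carry the expression results, with matches in capitals, 5′ to 3′ on the strand of the gene. A match on the opposite strand reads TTTC, any 2 bases, TTTC.
IFIT1 (chr10:89392373-89392672, plus strand): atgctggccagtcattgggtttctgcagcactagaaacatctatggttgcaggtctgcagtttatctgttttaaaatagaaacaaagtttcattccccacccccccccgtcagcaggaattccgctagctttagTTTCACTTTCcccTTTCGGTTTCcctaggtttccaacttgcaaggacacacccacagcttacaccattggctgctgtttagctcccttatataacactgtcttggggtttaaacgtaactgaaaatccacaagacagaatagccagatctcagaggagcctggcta
ISG15 (chr1:1013247-1013546, plus strand): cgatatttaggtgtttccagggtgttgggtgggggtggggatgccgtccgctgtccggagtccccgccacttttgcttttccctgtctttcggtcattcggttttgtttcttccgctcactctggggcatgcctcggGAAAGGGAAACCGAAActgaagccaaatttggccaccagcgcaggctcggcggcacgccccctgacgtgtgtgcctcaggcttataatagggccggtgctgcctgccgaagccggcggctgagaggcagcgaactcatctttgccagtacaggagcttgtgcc
MX1 (chr21:41420308-41420607, plus strand): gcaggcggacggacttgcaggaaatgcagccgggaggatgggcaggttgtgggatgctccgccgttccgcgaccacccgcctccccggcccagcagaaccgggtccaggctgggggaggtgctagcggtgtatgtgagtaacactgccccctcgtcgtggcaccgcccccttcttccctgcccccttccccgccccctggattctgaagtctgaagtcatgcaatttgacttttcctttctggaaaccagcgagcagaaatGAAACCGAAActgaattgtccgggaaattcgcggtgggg
IFIH1 (chr2:162318635-162318934, minus strand): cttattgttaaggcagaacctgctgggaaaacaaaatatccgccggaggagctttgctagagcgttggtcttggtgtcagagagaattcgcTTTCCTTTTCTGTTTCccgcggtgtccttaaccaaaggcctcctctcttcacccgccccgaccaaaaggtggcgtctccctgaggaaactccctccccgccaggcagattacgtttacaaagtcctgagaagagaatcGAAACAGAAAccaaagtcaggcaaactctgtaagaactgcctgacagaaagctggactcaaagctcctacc
IFI44 (chr1:78649539-78649838, plus strand): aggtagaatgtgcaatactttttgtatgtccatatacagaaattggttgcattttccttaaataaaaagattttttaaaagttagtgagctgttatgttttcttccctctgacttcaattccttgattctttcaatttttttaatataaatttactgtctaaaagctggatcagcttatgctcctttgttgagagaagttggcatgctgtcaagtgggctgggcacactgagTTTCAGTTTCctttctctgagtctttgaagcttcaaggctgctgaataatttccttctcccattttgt
DDX58 (chr9:32526147-32526446, minus strand): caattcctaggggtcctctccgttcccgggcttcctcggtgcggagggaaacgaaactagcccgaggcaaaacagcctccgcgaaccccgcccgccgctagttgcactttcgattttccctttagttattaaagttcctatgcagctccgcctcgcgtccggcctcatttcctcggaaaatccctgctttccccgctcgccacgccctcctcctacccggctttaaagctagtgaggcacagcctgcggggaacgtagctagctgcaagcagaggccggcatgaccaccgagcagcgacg

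The IFIT1 window held 2 matches, starting 116 and 103 bases before the start site. In ISG15 the 2 matches overlapped, at 113 and 107 bases before the start. IFIH1 held 3, at 159, 153 and 21 bases before the start. The MX1 match lay 12 bases into the transcript, and that of IFI44 lay 18 bases before its start. MX1 had 3 windows and IFI44 had 2, of which the first is shown. Another MX1 window held a match 196 bases before its own start, and the second IFI44 window held the same match 60 bases before its start. PARP9 and DTX3L, neighbouring genes read in opposite directions, shared 1 match at chr3:122564332-122564341. DDX58 held none.

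The members differed widely in level. Counts reached 10 or more in every library for 27 members, whereas OAS2, MX2, IFITM1, BST2, EPSTI1 and XAF1 never exceeded 30 counts in any library. Per kilobase of transcript in siControl, IFITM2, which blocks entry of enveloped viruses, had the highest mean at 41.8 CPM per kb (28.5 to 65.0 over the 4 libraries). OAS3 followed at 19.6, OAS1 at 19.3, IFITM3 at 16.5 and UBE2L6, the ISG15-conjugating enzyme, at 15.5 CPM per kb. The libraries of OAS1, OAS3, IFITM3 and UBE2L6 overlapped one another on this scale. IFIT1 stood at 0.573, MX1 at 0.476 and OASL at 0.383 CPM per kb, and MX2 and XAF1 were lowest at 0.00568 and 0.0028. IFIT1, MX1 and OASL transcripts were therefore scarce beside those of IFITM2, OAS3 and OAS1 before any knockdown.

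**Figure D1:**
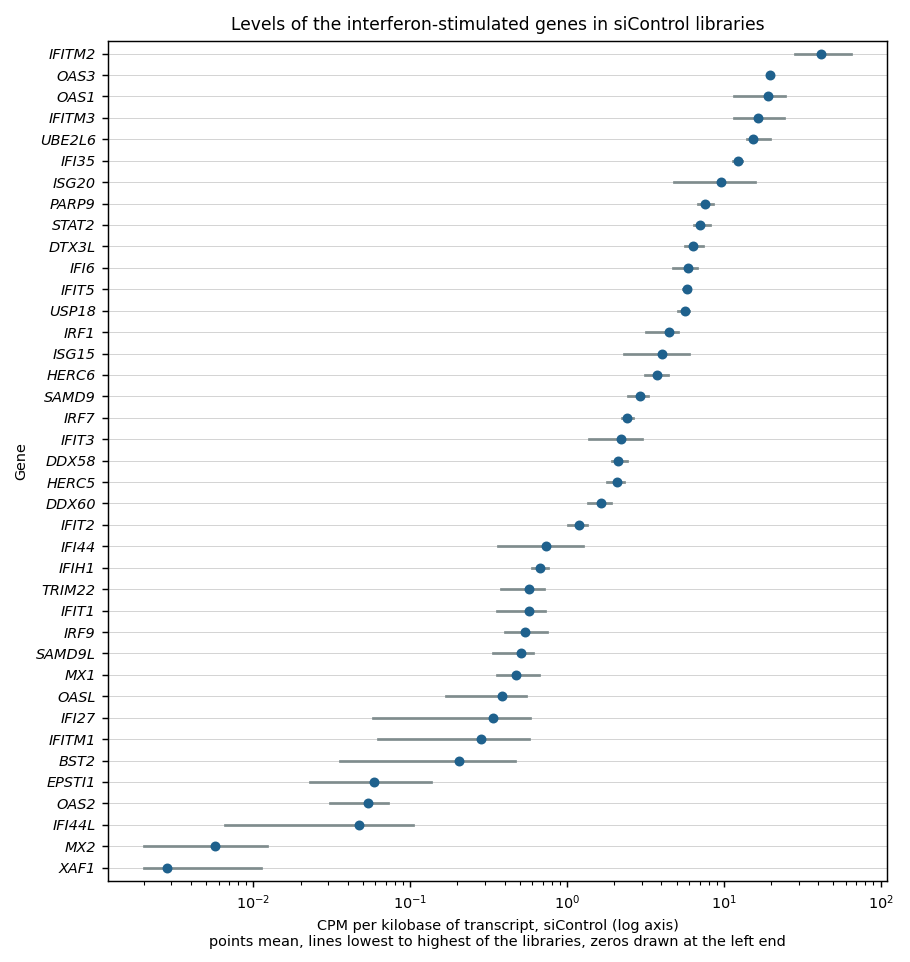
Level of each of the 39 members in the 4 siControl libraries, as CPM per kilobase of transcript on a log axis, with points at the mean and lines from the lowest to the highest library. IFITM2 is highest at 41.8 and XAF1 lowest at 0.0028 CPM per kb.

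Tests were run over all genes, and a call needed an adjusted p under 0.05 (edgeR quasi-likelihood test, Benjamini-Hochberg) and a fold change over 1.5. After the filter on low counts, 31 members were tested in every treatment comparison, OAS2, MX2, EPSTI1 and XAF1 in none, and BST2, IFI27, IFI44L and IFITM1 in some. Levels below are CPM set on 1 scale over all 24 libraries, and log2 fold changes come from the fit of each comparison.

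To determine how the group responded to loss of MYBL2, siMYBL2 was compared with siControl. A total of 9 of the 33 tested members rose and 0 fell, where 4.38% of all 16065 genes rose and 3.52% fell. The 9 were the RNA sensors IFIH1 and DDX58, IFIT1 and IFIT2, OASL, MX1, ISG15, SAMD9 and SAMD9L, with increases between 1.56-fold and 3.49-fold. The median log2 fold change was 0.52 over the 33 members and 0.015 over all genes tested, and 32 of the 33 values were above 0, as were 52% of all genes. All 4 siMYBL2 libraries lay above all 4 siControl libraries in 16 members, compared with 10.1% of all genes. No member was lower at an unadjusted p under 0.05, and DESeq2 also called 9 higher and 0 lower.

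Among regulators of the response, STAT2, a subunit of the ISRE-binding complex, stood at 43.8, 42.5, 39.9 and 49.9 CPM in siMYBL2 and at 29.4, 30.5, 28.4 and 36.0 CPM in siControl. The groups did not overlap, and the adjusted p was 0.00849, but the fold change of 1.44 missed the limit. IRF1, a transcription factor that acts on ISRE and related sites, had 23.8, 20.2, 21.9 and 14.1 CPM against 18.3, 17.2, 16.6 and 11.3 CPM. IRF9 had 1.12, 0.857, 1.20 and 0.663 CPM against 1.21, 0.650, 0.855 and 0.804 CPM. In both genes the groups overlapped and neither was called. IRF7, which drives interferon gene transcription, had a log2 fold change of 0.50 ± 0.15 (SE) with an adjusted p of 0.0482 and missed the fold limit.

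IFIH1, the sensor of long double-stranded RNA, rose from 2.42, 2.14, 2.71 and 2.41 CPM in siControl to 4.04, 3.74, 4.32 and 3.98 CPM. Every siMYBL2 library was above every control, and the log2 fold change was 0.75 ± 0.13 (adjusted p = 0.00533). DDX58, the sensor of RNA with triphosphate ends, rose by 0.64 ± 0.11 (adjusted p = 0.00546). In GENCODE V44, 43.2% of the DDX58 exon bases also belong to another gene on the same strand. The counts were made on V29, whose overlaps were not examined, so how far this touches the DDX58 counts is not known. DDX60, a related helicase, passed the adjusted p (0.0269) with a log2 fold change of 0.51 ± 0.13, short of the fold limit.

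IFIT1, which binds viral RNA by its cap, rose from 2.72, 2.49, 1.53 and 3.13 CPM to 4.60, 5.55, 5.51 and 6.92 CPM, a log2 fold change of 1.22 ± 0.23 (adjusted p = 0.00692). IFIT2, its relative, rose from 3.81, 4.55, 3.45 and 4.49 CPM to 7.48, 8.16, 7.33 and 6.36 CPM, by 0.87 ± 0.14 (adjusted p = 0.00321). Neither gene had a control library as high as any siMYBL2 library. IFIT3, which stabilises IFIT1, had 9.52, 7.78, 8.71 and 5.34 CPM against 7.19, 5.24, 5.45 and 3.30 CPM in siControl. Those groups overlapped, and the log2 fold change of 0.59 ± 0.24 was not called (adjusted p = 0.133). IFIT5 passed the adjusted p (0.0031) at 0.46 ± 0.07, below the fold limit.

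OASL, an OAS relative without synthetase activity, had the largest increase among the members called. Its level was 1.80, 1.42, 1.25 and 0.550 CPM in siControl and 5.20, 4.08, 4.43 and 3.56 CPM in siMYBL2, a log2 fold change of 1.80 ± 0.29 (adjusted p = 0.00383). OAS1, an active synthetase, went the other way in value only, with 23.7, 28.8, 20.3 and 28.6 CPM in siMYBL2 and 27.9, 38.5, 19 and 40.2 CPM in siControl. Its groups overlapped and its log2 fold change of -0.29 ± 0.23 was the single value below 0 (adjusted p = 0.419). OAS3 at 0.06 and the exonuclease ISG20 at 0.34 were not called.

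MX1, a GTPase that traps viral nucleocapsids, stood at 1.30, 0.994, 1.85 and 1.14 CPM in siControl and at 3.56, 1.99, 4.59 and 2.93 CPM in siMYBL2. The lowest siMYBL2 library was just above the highest control, and MX1 rose by 1.32 ± 0.29 (adjusted p = 0.015). ISG15 had 6.52, 4.36, 6.56 and 4.29 CPM against 3.81, 2.56, 2.49 and 1.48 CPM and rose by 1.09 ± 0.28 (adjusted p = 0.0255). Its call was lost without siMYBL2 replicate 1 or 3 or siControl replicate 2 or 3, with log2 fold changes between 0.89 and 1.33 over all 8 omissions and adjusted p up to 0.0776. The other 8 calls held in each of the 8 omissions. Of the ISG15 enzymes, UBE2L6 passed the adjusted p (0.0262) at 0.51 ± 0.13, short of the fold limit. The ISG15 ligase HERC5 at 0.21, its relative HERC6 at 0.18 and the ISG15 protease USP18 at 0.04 were not called.

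SAMD9 and SAMD9L, neighbouring genes whose products restrict poxviruses, both rose. SAMD9 had 31.2, 30.8, 35.9 and 29.2 CPM against 20.3, 22.5, 19.6 and 16.8 CPM, a log2 fold change of 0.71 ± 0.11 (adjusted p = 0.00262). SAMD9L had 7.96, 7.54, 9.22 and 5.94 CPM against 4.14, 4.36, 3.67 and 2.41 CPM, a log2 fold change of 1.09 ± 0.20 (adjusted p = 0.00726). The groups were apart in both genes. PARP9 passed the adjusted p (0.00717) at 0.46 ± 0.09 without reaching the fold limit, and its partner DTX3L was at 0.07. The membrane proteins IFITM2 at 0.51, IFITM3 at 0.58 and BST2 at 1.25 were not called, nor were TRIM22 at 0.74, IFI6 at 0.52, IFI27 at 1.05, IFI35 at 0.24 and IFI44 at 1.08.

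**Figure D2:**
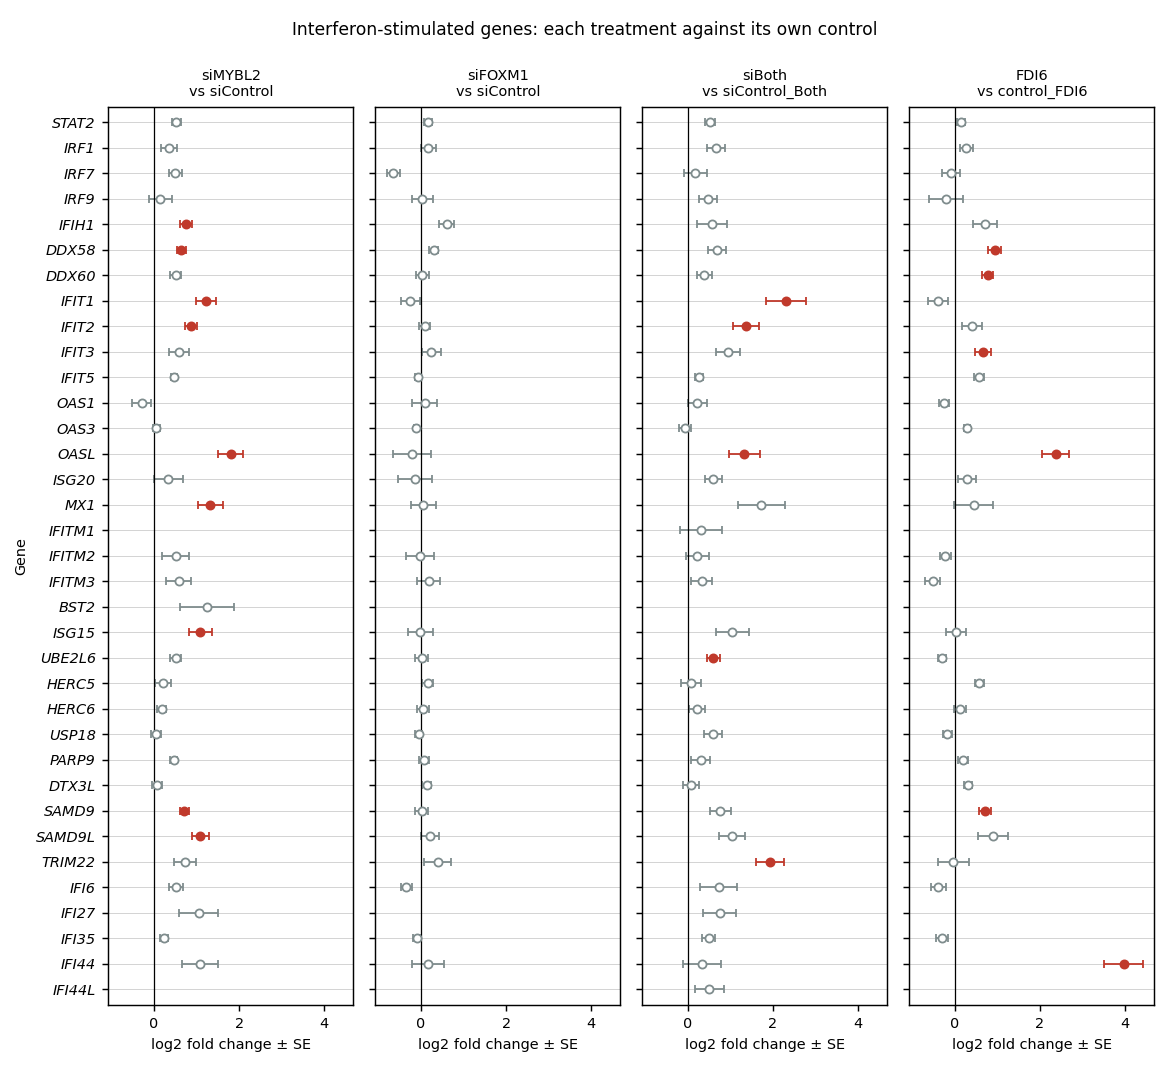
Log2 fold change (x axis, ± SE) of each tested member (y axis) in the 4 treatment comparisons, with filled points for calls and open points for members not called. Filled points number 9 in siMYBL2, 0 in siFOXM1, 5 in siBoth and 6 in FDI6, all to the right of 0.

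Same-numbered libraries of siMYBL2 and siControl varied together. With the replicate number as a block, 14 members rose and 0 fell, where 7.68% of all genes rose and 4.71% fell, and the added members were IFIT3, BST2, TRIM22, IFI27 and IFI44. Of the 9 genes called without the block, 5 had an ISRE-like match, DDX58 and SAMD9L had a window without one, and IFIT2 and OASL had no window. Among 7 leukocyte markers, CD3E and HLA-DRA were at 0 in all 24 libraries and PTPRC and CD68 did not exceed 0.231 CPM. The summed level of the 7 was 14.3 to 18.3 CPM in siMYBL2 and 7.15 to 11.0 CPM in siControl, with CD14 up by 1.06 on the log2 scale, and their part in the result was not tested.

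To ask the same of FOXM1, siFOXM1 was compared with siControl, so the controls are those of the siMYBL2 comparison. Here 0 of the 31 tested members were called by edgeR, where 0.667% of all genes were called in either direction. At an unadjusted p under 0.05 there were 5 members, of which 2 were higher and 3 lower, and DESeq2 called 1 member, IRF7, as lower. The share of all genes at that unadjusted p is not given, so these 5 cannot be set beside it. The median log2 fold change was 0.057 over the members and 0.0025 over all genes, and 20 of the 31 values were above 0, as were 50.6% of all genes.

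The 3 members with the lowest p were IRF7, IFIH1 and DDX58. IRF7 had 3.43, 3.43, 2.65 and 2.29 CPM in siFOXM1 and 4.89, 4.28, 5.06 and 4.32 CPM in siControl. All siFOXM1 libraries were lower, with a log2 fold change of -0.65 ± 0.16 and an adjusted p of 0.107. IFIH1 had 3.24, 3.80, 4.59 and 3.02 CPM against the siControl values of 2.14 to 2.71 CPM given above. All siFOXM1 libraries were higher, with a log2 fold change of 0.60 ± 0.17 and an adjusted p of 0.141. DDX58 had 13.6, 11.3, 12.5 and 10.8 CPM against 11.1, 8.95, 10.0 and 9.23 CPM. Its groups overlapped and its log2 fold change was 0.30 ± 0.11 (adjusted p = 0.294). With the replicate block, IFIH1 rose and IRF7 fell, where 2.52% of all genes were called.

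Of the members that rose after siMYBL2, IFIT1, IFIT2, MX1 and ISG15 were not called after siFOXM1. IFIT1 had 2.24, 2.02, 1.67 and 2.32 CPM (log2 fold change -0.25 ± 0.23), and IFIT2 had 4.05, 4.36, 4.17 and 4.65 CPM (0.09 ± 0.13). MX1 had 1.85, 1.01, 1.74 and 0.896 CPM (0.06 ± 0.30), and ISG15 had 2.97, 2.38, 3.15 and 1.69 CPM (-0.02 ± 0.29). Each of these groups overlapped the siControl values. IFIT3 had 7.22, 5.05, 6.71 and 5.91 CPM, OAS1 had 29, 38.2, 20.1 and 46.2 CPM, and STAT2 had 34.1, 33.1, 31.6 and 40.2 CPM. IRF1 had 20.7, 17.1, 19.3 and 13.9 CPM and IRF9 had 0.965, 1.09, 0.720 and 0.797 CPM. Again every group overlapped its control, and the log2 fold changes of these 5 lay between 0.03 and 0.24.

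The direct comparison of siMYBL2 with siFOXM1 tested the difference between the knockdowns without the shared controls. A total of 10 of 33 members were higher in siMYBL2 and 0 were lower, where 5.86% of all genes were higher and 4.34% lower. OASL differed most, with a log2 difference of 2.01 ± 0.33 (adjusted p = 0.00289) and siFOXM1 values of 1.5, 1.57, 0.455 and 0.797 CPM. IFIT1 differed by 1.46 ± 0.17 (adjusted p = 0.000491), MX1 by 1.26 ± 0.32 (0.0216), IRF7 by 1.14 ± 0.19 (0.00276) and ISG15 by 1.10 ± 0.24 (0.0103). IFIT2 at 0.78, SAMD9 at 0.68, SAMD9L at 0.87, IFI6 at 0.86 and IFI27 at 1.00 completed the list. IFIH1 and DDX58, which rose after siMYBL2, did not pass this test, at 0.15 ± 0.16 (adjusted p = 0.552) and 0.34 ± 0.12 (0.0609). All 4 siMYBL2 libraries were above all 4 siFOXM1 libraries in 15 members, compared with 12% of all genes. DESeq2 also called 10 higher and 0 lower, with IFI44 in place of IFI27, and 0 were lower at an unadjusted p under 0.05. IFI27 was not called with no filter on low counts or with all 24 libraries in 1 fit either. The block added IFI44 to the calls, at 11 of 33 beside 8.49% of all genes. The IFI27 call was lost without siMYBL2 replicate 1 or 4 or siFOXM1 replicate 1, 2 or 4 (log2 difference 0.87 to 1.10 over 8 omissions). MX1 was lost without siMYBL2 replicate 1 or 3 or siFOXM1 replicate 2 (1.05 to 1.44), and SAMD9 without siFOXM1 replicate 4 (0.55 to 0.73).

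Combined knockdown was compared with its own control, siBoth against siControl_Both. A total of 5 of 34 tested members rose and 0 fell, where 2.8% of all 15812 genes rose and 3.64% fell. The 5 were IFIT1, IFIT2, OASL, UBE2L6 and TRIM22, with increases between 1.51-fold and 4.95-fold. The median log2 fold change was 0.54 over the members and 0.017 over all genes, and 33 of 34 values were above 0, as were 52.1% of all genes. All siBoth libraries lay above all siControl_Both libraries in 12 members, compared with 14.7% of all genes. DESeq2 called 13 members higher and 0 lower, a count given without the share of all genes that DESeq2 called. At an unadjusted p under 0.05, 0 were lower.

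IFIT1 rose from 1.29, 1.04 and 0.446 CPM to 3.02, 7.29 and 3.24 CPM, a log2 fold change of 2.31 ± 0.46 (adjusted p = 0.0181). IFIT2 rose from 2.81, 2.85 and 1.65 CPM to 6.90, 7.54 and 3.94 CPM, by 1.35 ± 0.31 (adjusted p = 0.0268). IFIT3 had 12.2, 10.6 and 6.36 CPM against 6.92, 4.70 and 3.92 CPM and was not called at 0.94 ± 0.29 (adjusted p = 0.0687). The IFIT1 and IFIT2 groups were apart and the IFIT3 groups overlapped, with siBoth replicate 2 highest for IFIT1 and IFIT2. OASL rose from 1.11, 2.0 and 1.20 CPM to 3.02, 5.29 and 2.42 CPM, by 1.33 ± 0.36 (adjusted p = 0.0481). UBE2L6 rose from 29.8, 24.0 and 20.1 CPM to 42.5, 35.5 and 31.7 CPM, by 0.60 ± 0.16 (adjusted p = 0.0475). TRIM22, an antiviral ubiquitin ligase, rose from 0.692, 0.578 and 0.446 CPM to 2.23, 2.79 and 1.44 CPM, by 1.93 ± 0.33 (adjusted p = 0.0102). In all 3 the groups were apart.

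MX1 had 5.09, 7.87 and 2.09 CPM in siBoth and 1.29, 2.62 and 0.668 CPM in siControl_Both. The groups overlapped, and the log2 fold change of 1.72 ± 0.56 was not called (adjusted p = 0.08). ISG15 had 4.56, 10.5 and 5.17 CPM against 2.72, 4.81 and 2.41 CPM and was not called at 1.05 ± 0.38 (adjusted p = 0.11). Replicate 2 was the highest library of both groups for MX1 and ISG15. STAT2 had 61.5, 60.6 and 55.7 CPM against 49.8, 37.7 and 39.5 CPM, and its adjusted p of 0.0269 came with a fold change of 1.43, under the limit. IRF1 had 61.4, 64.7 and 37.3 CPM against 36.0, 41.6 and 28.3 CPM, with a log2 fold change of 0.65 ± 0.22 (adjusted p = 0.0851). IRF9 had 2.23, 2.33 and 2.46 CPM against 1.71, 1.46 and 1.96 CPM, all siBoth libraries higher, with 0.48 ± 0.21 (adjusted p = 0.168). OAS1 had 22.8, 23.3 and 15.1 CPM against 23.0, 16.9 and 13.8 CPM and overlapped, at 0.22 ± 0.22.

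Replicate numbers paired these libraries too. With the block 14 members rose and 0 fell, where 6.62% of all genes rose and 5.08% fell, and IRF1, DDX58, IFIT3, MX1, ISG15, USP18, SAMD9, SAMD9L and IFI6 joined the 5. TRIM22 was called in all 6 omissions of a library (1.70 to 2.13). IFIT1 was lost without siControl_Both replicate 2 or 3 (1.77 to 2.60), and IFIT2 and UBE2L6 were lost without siBoth replicate 1 or 2 or siControl_Both replicate 2 or 3 (1.14 to 1.57 and 0.46 to 0.75). OASL was lost in every omission but that of siBoth replicate 3 (0.93 to 1.65). The count was 1 without siControl_Both replicate 2 or 3, 2 without siBoth replicate 1 or 2, 8 without siControl_Both replicate 1 and 11 without siBoth replicate 3. With GC content and transcript length corrected for, OASL at 1.28 (adjusted p = 0.0547) and UBE2L6 at 0.48 (adjusted p = 0.0788) were not called, nor was UBE2L6 when the block was added. With upper-quartile scaling 7 members rose, and the share of all calls that were higher moved from 43.5% to 59.4%. The summed leukocyte markers were 16.3 to 19.4 CPM in siBoth and 7.04 to 10.8 CPM in siControl_Both, with CD14 up by 1.08 and ITGAM up by 1.21, and their part was not tested.

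The siBoth effect and the siMYBL2 effect, each against its own control, were compared by an interaction contrast over the 18 siRNA libraries. In edgeR 0 of 36 members differed, where 0.15% of all genes differed, with 3 members at an unadjusted p under 0.05 and 0 called by DESeq2. TRIM22 had a log2 difference of 1.19 (adjusted p = 0.494) and IFIT1 of 1.08 (adjusted p = 0.53). With the block both were called (adjusted p = 0.033 and 0.042), where 0.41% of all genes were higher.

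The compound was examined by comparing FDI6 with control_FDI6. MYBL2 and FOXM1 transcripts passed the adjusted p but not the fold limit, at -0.51 and -0.37 on the log2 scale. A total of 6 of 31 members rose and 0 fell, where 8% of all 15240 genes rose and 5.77% fell. The 6 were DDX58, DDX60, IFIT3, OASL, SAMD9 and IFI44, with fitted increases between 1.57-fold and 15.6-fold. The median log2 fold change was 0.27 over the members and -0.012 over all genes, with 20 values above and 11 below 0, compared with 48.9% and 51.1% of all genes. Libraries were apart in 11 members that were higher and 4 that were lower, compared with 24.9% and 27% of all genes. At an unadjusted p under 0.05, 2 members were lower, and DESeq2 called 6 higher and 0 lower.

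DDX58 rose from 7.57, 5.94 and 8.56 CPM to 16.5, 12.5 and 12.4 CPM, a log2 fold change of 0.93 ± 0.16 (adjusted p = 0.000991). DDX60 rose from 7.08, 7.79 and 7.43 CPM to 13.9, 12.8 and 10.9 CPM, by 0.77 ± 0.13 (adjusted p = 0.000715). Both helicases were apart from their controls. IFIT3 rose from 3.25, 2.63 and 3.23 CPM to 5.29, 4.08 and 4.68 CPM, by 0.65 ± 0.19 (adjusted p = 0.0176). SAMD9 rose from 5.95, 5.11 and 5.06 CPM to 9.43, 8.39 and 8.05 CPM, by 0.70 ± 0.14 (adjusted p = 0.00254). Neither of these overlapped its control.

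OASL had 0.325, 0.390 and 0.431 CPM in the controls and 2.04, 1.78 and 2.07 CPM after FDI-6, a log2 fold change of 2.36 ± 0.32 (adjusted p = 0.000202). These were 22 counts in all control libraries and 103 in all treated libraries, a ratio per depth of 5.36 (95% interval 3.36 to 8.93, counting error only). IFI44, an interferon-induced protein with antiviral activity, had 0.162, 0.0487 and 0.269 CPM in the controls and 3.24, 1.90 and 2.40 CPM after FDI-6. Its fitted log2 fold change was 3.96 ± 0.46 (adjusted p = 6.19e-05), on 9 counts against 131, a ratio of 16.7 (8.52 to 37.3). This was the highest fold of the members tested, from a control level close to 0.

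IFIT1, ISG15, MX1 and IFIT2, which rose after siMYBL2, were not called here. IFIT1 had 2.34, 2.64 and 2.12 CPM after FDI-6 and 4.06, 3.07 and 2.42 CPM in the controls, with a log2 fold change of -0.40 ± 0.24 (adjusted p = 0.203). ISG15 had 3.24, 4.02 and 5.66 CPM against 5.03, 3.65 and 4.31 CPM, at 0.03 ± 0.23. MX1 had 1.32, 0.977 and 0.762 CPM against 0.811, 1.17 and 0.269 CPM, at 0.44 ± 0.46. All of these overlapped. IFIT2 had 2.16, 3.04 and 2.67 CPM against 2.27, 2.0 and 1.78 CPM, at 0.41 ± 0.23. OAS1 had 21.0, 17.0 and 15.8 CPM against 24.6, 21.4 and 19.1 CPM, at -0.25 ± 0.13. The regulators also overlapped. STAT2 had 20.3, 21.0 and 22.1 CPM against 17.5, 19.5 and 21.3 CPM, IRF1 had 12.0, 12.6 and 13.6 CPM against 8.87, 10.3 and 13.1 CPM, and IRF9 had 0.481, 0.460 and 0.871 CPM against 0.595, 0.779 and 0.754 CPM. Another 6 members passed the adjusted p but not the fold limit, 4 of them higher (IFIT5 at 0.56, HERC5 at 0.57, DTX3L at 0.31 and OAS3 at 0.28) and 2 lower (IFITM3 at -0.52 and UBE2L6 at -0.29).

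The IFIT3 call was lost without FDI6 replicate 1 or control_FDI6 replicate 2 (0.55 to 0.74 over 6 omissions), and the count was 10 without FDI6 replicate 3. With GC content and transcript length corrected for, DDX60 at 0.41 and SAMD9 at 0.26 were not called and 4 members were. The epithelial markers moved in the same libraries, with KRT8, KRT18 and CDH1 down by 0.81, 0.65 and 1.49 and a summed level of 5904 to 6783 CPM against 9753 to 10507 CPM. Their part was not tested.

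**Figure D3:**
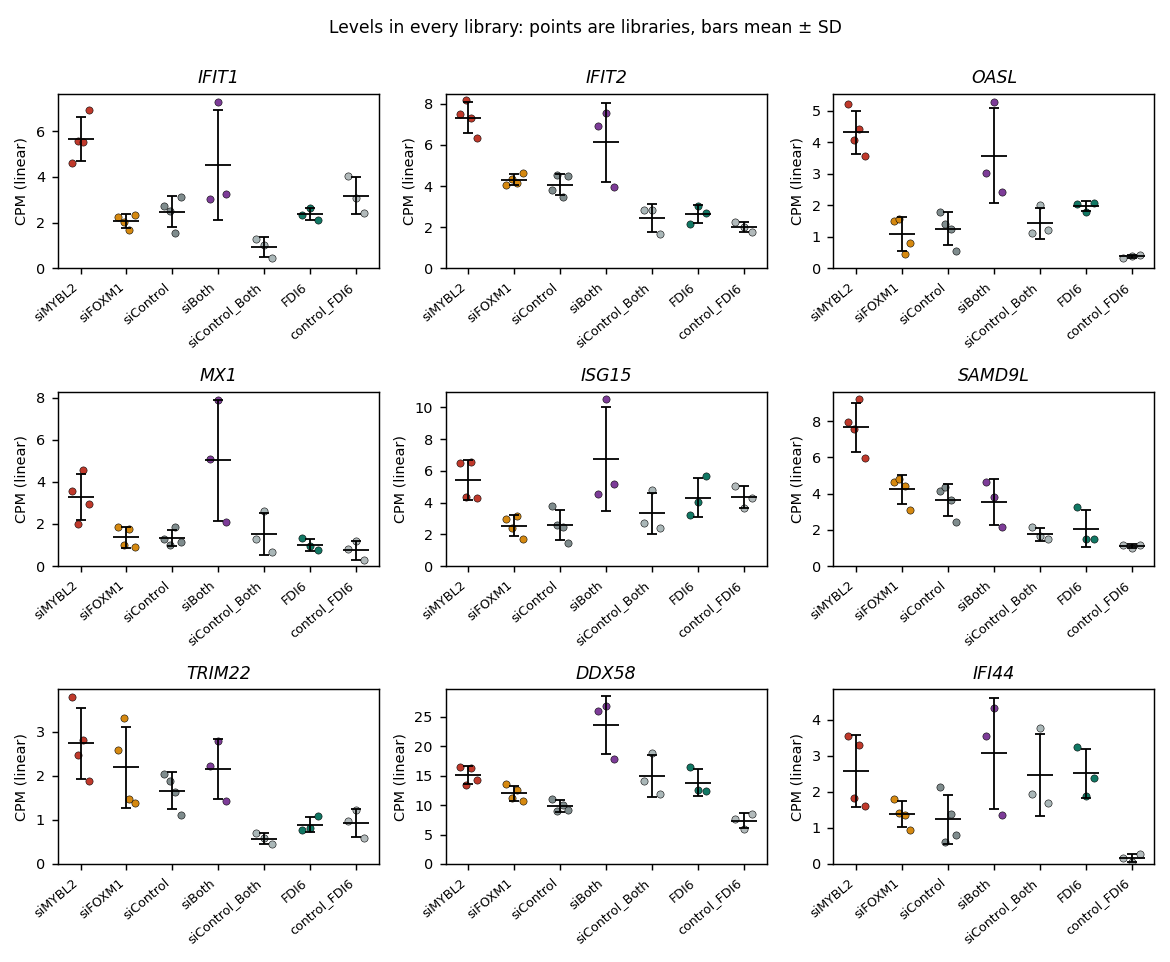
CPM on a linear axis in each library (points) with mean ± SD (bars) for 9 members in the 7 groups. IFIT1, IFIT2, OASL, MX1, ISG15 and SAMD9L sit higher in all 4 siMYBL2 libraries than in siControl, and IFI44 is near 0 in control_FDI6 alone.

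The FDI6 effect was set against the siFOXM1 effect by an interaction contrast over all 24 libraries. A total of 4 of 35 members were higher under FDI6 and 0 lower, where 7.11% of all genes were higher and 4.1% lower, with 1 member lower at an unadjusted p under 0.05 and 6 higher and 0 lower by DESeq2. IFI44 differed by 3.81 (adjusted p = 0.00197), OASL by 2.58 (0.00418), DDX60 by 0.74 (0.0196) and IFIT5 by 0.63 (0.00157). DDX60 and IFIT5 were lost under the GC and length correction. DDX60 was also lost without FDI6 replicate 1 or control_FDI6 replicate 1 (0.65 to 0.84), and IFIT5 without siFOXM1 replicate 4 or control_FDI6 replicate 2 (0.55 to 0.74). Upper-quartile scaling left 3 calls and moved the share of all calls that were higher from 63.5% to 50.4%.

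The controls themselves differed in these genes. The siRNA controls and control_FDI6 were made in separate experiments, so transfection, experiment and depth cannot be told apart, and the comparisons share libraries. RNA extraction may differ with them, since the study's methods name the Aurum kit for siRNA cells and TRIzol for RNA-seq. In siControl against control_FDI6, 10 of 33 members were higher and 1 was lower, where 15.4% of all genes were higher and 12.4% lower. SAMD9 at 1.85 ± 0.14 (adjusted p = 1.32e-05), SAMD9L at 1.68 ± 0.25 (0.000528) and OASL at 1.67 ± 0.43 (0.00971) were among the 10. IFI44 had the largest fitted value, 2.90 ± 0.64 (adjusted p = 0.00417), on 125 counts against 9, a ratio per depth of 7.87 (4.01 to 17.6). IFIT2 at 0.99, PARP9 at 0.87, IFIT3 at 0.78, IFITM3 at 0.71, STAT2 at 0.65 and DTX3L at 0.64 were also higher, and ISG15 was lower at -0.77 ± 0.28 (adjusted p = 0.0416). With GC content and transcript length corrected for, ISG15 at -0.25, DTX3L at 0.28 and STAT2 at 0.52 were not called, and ISG15 was at -0.075 with the block as well. In IFITM3 and ISG15 the libraries overlapped, as the levels above show for ISG15 (1.48 to 3.81 CPM in siControl).

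In siControl_Both against control_FDI6, 14 of 33 members were higher and 2 were lower, where 18% of all genes were higher and 16.8% lower. The regulators IRF1 at 1.68 ± 0.17 (adjusted p = 2.33e-05), IRF9 at 1.22 ± 0.28 (0.00351) and STAT2 at 1.09 ± 0.12 (4.73e-05) were among the 14. IFITM3 at 1.94, OASL at 1.87, ISG20 at 1.09, IFITM2 at 1.03, DDX58 at 0.99, DTX3L at 0.97, IFIT3 at 0.74, PARP9 at 0.62 and SAMD9 at 0.62 were further members. IFI44 had 178 counts against 9, a ratio of 15.6 (8.05 to 34.8), and IFI44L had 57 against 2, a ratio of 22.5 (5.96 to 190.5). IFIT1 was lower at -1.81 ± 0.35 (adjusted p = 0.00156) and USP18 at -0.99 ± 0.17 (0.000803). The same correction left DTX3L at 0.57, PARP9 at 0.48 and SAMD9 at 0.34 without a call.

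The scrambled controls also differed from each other, with 4 of 33 members higher and 6 lower in siControl_Both, where 6.98% of all genes were higher and 7.67% lower. IRF1 at 1.16, IRF9 at 0.96, DDX58 at 0.61 and IFITM3 at 1.24 were higher. TRIM22 at -1.53 ± 0.30 (adjusted p = 0.00619), IFIT1 at -1.40 ± 0.37 (0.0221), SAMD9 at -1.22 ± 0.19 (0.00256), SAMD9L at -1.04, USP18 at -0.86 and IFIT2 at -0.73 were lower. IFIT1 and TRIM22, which had the largest fitted increases in siBoth, had their lowest group means in siControl_Both, at 0.926 and 0.572 CPM. IFIT2 at -0.67 was not called after the GC and length correction, nor IRF9 at 0.80 when the block was added to it. In siBoth, TRIM22 at 1.44 to 2.79 CPM overlapped the 1.10 to 2.05 CPM of siControl, and IFIT1 at 3.02 to 7.29 CPM overlapped its 1.53 to 3.13 CPM.

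**Figure D4:**
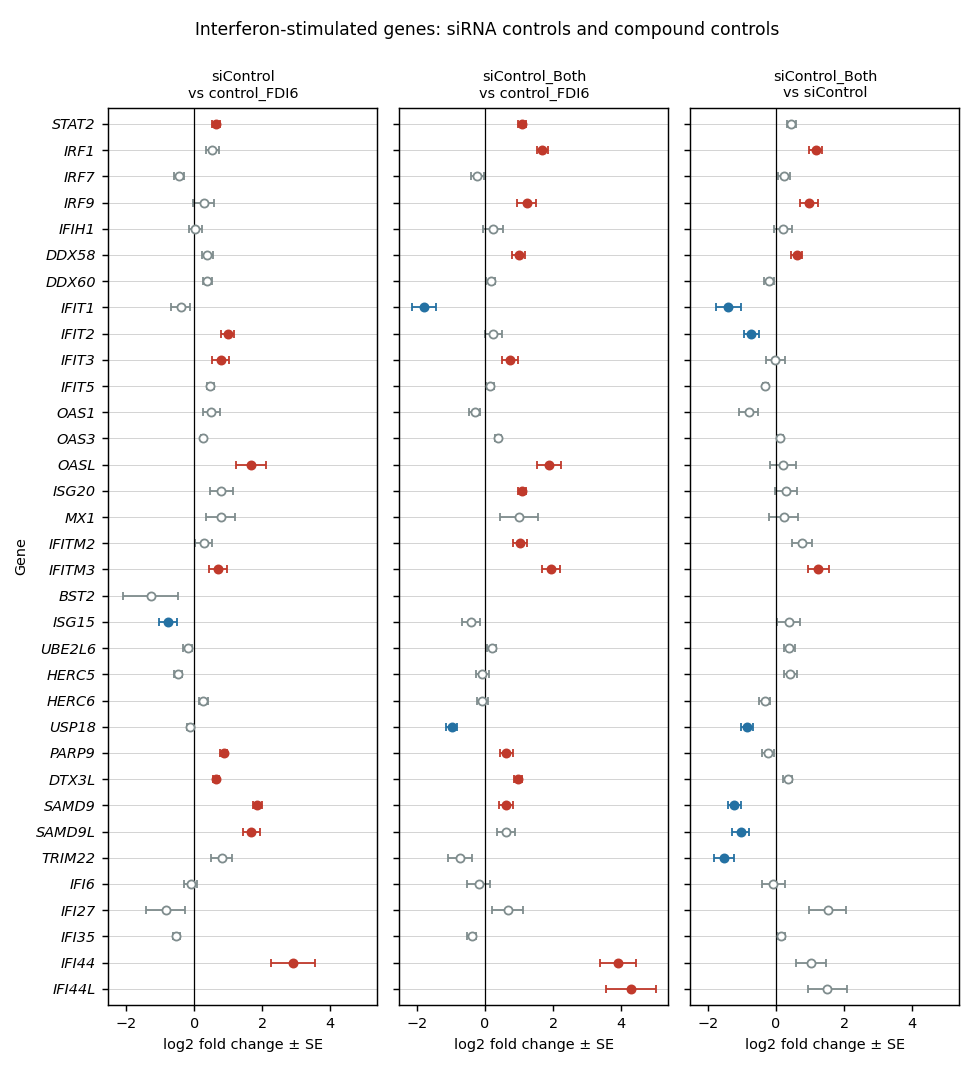
Log2 fold change (x axis, ± SE) of each tested member (y axis) between the control groups, with filled points for calls to the right (higher) or left (lower) of 0. IFI44 is fitted at 2.90 and 3.90 against control_FDI6, and IFIT1 at -1.81 and -1.40 in the panels of siControl_Both.

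Some calls in the control comparisons depended on single libraries, and others held in every omission. In siControl against control_FDI6, SAMD9, SAMD9L, OASL, IFI44, IFIT2 and PARP9 held in all 7 omissions. In siControl_Both against control_FDI6, each call not named below as lost held in all 6. Between the scrambled controls, IRF1, SAMD9, TRIM22 and USP18 held in all 7. In siControl against control_FDI6 the count was 7 without control_FDI6 replicate 1. ISG15 was lost in all omissions but that of siControl replicate 1 (-1.0 to -0.58), and IFITM3 in all but those of siControl replicates 2 and 3 (0.46 to 0.86). IFIT3 was lost without siControl replicate 1 or any control_FDI6 library (0.60 to 0.95), STAT2 without siControl replicate 4 or control_FDI6 replicate 1 (0.57 to 0.72), and DTX3L without siControl replicate 3 (0.57 to 0.69). In siControl_Both against control_FDI6, IFIT3 was lost without siControl_Both replicate 1 or control_FDI6 replicate 2 or 3 (0.50 to 0.92), SAMD9 without the same libraries (0.39 to 0.78), and PARP9 without siControl_Both replicate 1 or control_FDI6 replicate 1 or 3 (0.37 to 0.79). IFI44L stayed called there, with a fitted value of 7.11 without control_FDI6 replicate 2, which leaves the controls at 0 counts and the value no bound, and of 3.80 to 4.46 in the other omissions. Between the scrambled controls the count was 6 without siControl_Both replicate 2 or 3. There IFIT2 was lost in all omissions but that of siControl replicate 3 (-0.88 to -0.53), IFIT1 without siControl replicate 1 or siControl_Both replicate 2 or 3 (-1.71 to -1.09), and SAMD9L without siControl_Both replicate 2 or 3 (-1.22 to -0.94). DDX58 was lost without siControl replicate 2 or 4 or siControl_Both replicate 2 (0.40 to 0.74), IRF9 without siControl replicate 2 or siControl_Both replicate 1 or 3 (0.84 to 1.15), and IFITM3 without siControl_Both replicate 1 (0.87 to 1.48). Under upper-quartile scaling the splits were 7 higher and 2 lower, 12 and 2, and 3 and 7. That scaling moved the share of all calls that were higher from 55.3% to 44.2% in siControl and from 51.7% to 41% in siControl_Both, each against control_FDI6, and put the median of all genes in the latter at -0.13. Endothelial markers summed to 1.42 to 4.64 CPM in siControl and 1.78 to 3.00 CPM in siControl_Both, against 0 to 0.485 CPM in control_FDI6, and epithelial markers to 6289 to 7682, 3814 to 5731 and 9753 to 10507 CPM. Their part was not tested.

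The pathway around the members was read from lists of other genes. Interferon ligands were almost absent, since 10 of 21 ligand genes had no count in any library and 9 had at most 4 counts in any library. IFNE, an epithelial type I interferon, was the ligand tested in all 4 treatment comparisons, and it rose after siBoth (log2 fold change 0.93 ± 0.24, adjusted p = 0.0436) and was not called in the other 3. In the direct comparison IFNE was higher in siMYBL2 than in siFOXM1 (0.74 ± 0.21, adjusted p = 0.030), where 5.86% of all genes were higher. IFNA1 was not called there (0.54 ± 0.40, adjusted p = 0.369). Receptors, kinases and STATs showed 0 calls among 10 or 11 tested genes in each treatment comparison by edgeR or DESeq2, with 2 or 3 genes at an unadjusted p under 0.05. The 7 negative regulators, which include SOCS1 and SOCS3, likewise showed 0 calls by either tool, with 1 to 4 genes at an unadjusted p under 0.05. After FDI6, several genes of these lists passed the adjusted p but not the fold limit. They were IFNAR1 (0.41), TYK2 (-0.21), TRIM38 (0.54), IRF2 (0.54), PTPN2 (0.32) and PTPN6 (-0.48). Of all genes, edgeR called 4.38% higher and 3.52% lower after siMYBL2 and 0.667% in either direction after siFOXM1. It called 2.8% higher and 3.64% lower after siBoth, and 8% higher and 5.77% lower after FDI6.

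Genes of nucleic acid sensing were read from a list of 19. After siBoth, STING1, the adaptor of DNA sensing, rose (1.54 ± 0.27, adjusted p = 0.0104) as the 1 call among 14, where 2.8% of all genes rose. After siFOXM1, STING1 was at 0.64 ± 0.30 and was not called (adjusted p = 0.414). With the replicate block it was called higher there (0.63, adjusted p = 0.015), where 2.52% of all genes were called. After FDI6, 3 of 13 rose, namely TRIM25 (0.66), CGAS (0.83) and IFI16 (1.23), where 8% of all genes rose. A further list of 32 interferon-stimulated genes outside the members gave 5 of 24 risen and 0 fallen after siMYBL2. Of all genes, 4.38% rose and 3.52% fell. The 5 were PARP10 (1.11), GBP2 (1.10), GBP3 (0.89), SLFN5 (0.89) and SP110 (0.61). In siMYBL2 directly against siFOXM1, SLFN5 (0.99), SP110 (0.87) and GBP2 (0.69) were called higher and TRIM14 (-0.82) lower. Of all genes, 5.86% were higher and 4.34% lower there. After siFOXM1 0 of 24 were called by edgeR or DESeq2, with 3 at an unadjusted p under 0.05, where edgeR called 0.667% of all genes. After siBoth PARP10 (1.38) and PML (0.74) rose among 24, where 2.8% of all genes rose. After FDI6 SLFN5 (1.29), APOL6 (1.06) and SP100 (0.62) rose among 23, where 8% of all genes rose. The median log2 fold change of that list was 0.41 after siMYBL2, 0.076 after siFOXM1, 0.44 after siBoth and 0.27 after FDI6.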

How the data were processed

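RNA-seq of 24 A549 libraries was available as read pairs counted per gene. Per the labels and methods, the authors trimmed reads (Trim Galore), aligned them to hg38 with STAR and made the deposited count tables with HTSeq on GENCODE V29; the strand setting was not given in the sources used here. Gene names came from GENCODE V44, which matched 58207 of 58721 identifiers. Summary lines of the counter were kept out of library sizes. A separate model per comparison, holding the compared groups alone, was run in edgeR 4.0.16 in R 4.3.3 (filterByExpr, TMM scaling, quasi-likelihood test, Benjamini-Hochberg over all genes tested), and genes were called at an adjusted p under 0.05 with a fold of more than 1.5. Interactions used the 18 siRNA libraries or all 24. Levels are CPM with TMM scaling over all 24 libraries, also per kilobase of the canonical transcript.

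The members and lists were chosen with earlier results of these data known. All members are named; values per library are given for called members (at most 8 by fold, or the 3 of lowest p where none was called) and for IFIT1, IFIT2, IFIT3, ISG15, MX1, OAS1, IRF1, IRF9 and STAT2, and at most 5 called genes per other list. Same-numbered libraries deviated together in siMYBL2 and siControl (correlation of deviations 0.57 to 0.87), siFOXM1 and siControl (0.54 to 0.90) and siBoth and siControl_Both (0.55 to 0.69), which is the source of the pairing, but not in FDI6 and control_FDI6 (-0.29 to 0.16). Alternatives were a replicate block, DESeq2 1.42.0, other scalings and filters, all libraries in 1 fit and omission of each library; adjustment for GC content and length of transcripts was chosen after seeing the data. The fits were also run on simulated counts, with an outcome not reported here. Those counts were drawn without a replicate effect, so they do not test the fits on libraries that pair. Some results on other listed genes are not reported here. Gene overlaps were read from GENCODE V44 and not from V29 of the counts. In V44, exons of DDX58, IRF9, IRF1, IFIT2, IFI6, XAF1, IFITM1 and IFITM3, among others, overlap those of other genes. Without the strand setting, overlaps on opposite strands cannot be separated. Overlaps on the same strand, as in DDX58 and IFI6, remain with any setting, and the IFITM genes are similar copies. Intervals of count ratios cover counting error only, and the depth of 16487394 to 30140550 pairs limits the scarce members.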

Additional observations from a re-analysis of the deposited data

Results flagged for a closer look

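Among 99 groups of 4 libraries examined over 33 members, 4 held a library apart from the others of its group, and chance gives about 1 in 20 groups. IFIT5 stood highest in siMYBL2 replicate 3 at 34.9 CPM, as did HERC5 at 11.7 CPM (11.65). UBE2L6 stood highest in siControl replicate 3 at 23.9 CPM. SAMD9 stood lowest in siFOXM1 replicate 4 at 14.5 CPM, and its difference between siMYBL2 and siFOXM1 was not called without that library. Differences between treatments that passed their own test were the siMYBL2 against siFOXM1 differences of IRF7 (1.14), IFIT1 (1.46), IFIT2 (0.78), OASL (2.01), MX1 (1.26), ISG15 (1.10), SAMD9 (0.68), SAMD9L (0.87), IFI6 (0.86) and IFI27 (1.00) on the log2 scale. The FDI6 effect exceeded the siFOXM1 effect for DDX60 (0.74), IFIT5 (0.63), OASL (2.58) and IFI44 (3.81).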

How the results depend on the processing

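With the replicate block, 14 members were called in siMYBL2, 2 in siFOXM1, 14 in siBoth, 2 in the siBoth minus siMYBL2 contrast and 8 in the FDI6 minus siFOXM1 contrast, whose FDI6 numbers do not pair. With the block and the GC and length correction together, the counts were 2 in siFOXM1, 11 in siBoth and 2 in the siBoth minus siMYBL2 contrast. DESeq2 called 1 member in siFOXM1 and 13 in siBoth. In siBoth, 15 were called with no filter on low counts and 12 with all 24 libraries in 1 fit, and 2 remained in the FDI6 minus siFOXM1 contrast with at least 10 counts in every library. Counts of calls in this section are given without the share of all genes called under the same setting. The same holds for the DESeq2 counts in the sections above. It also holds for every count at an unadjusted p, or at the adjusted p without the fold limit. Outside the ISRE-like letters, a GAS-like match (TTC, any 3 bases, GAA) lay in 32.3% of member genes and 9.38% of all genes, and shorter and longer ISRE-like forms in 67.7% and 64.5% of member genes and 9.86% and 0.949% of all. When each library was left out in turn, counts ranged from 8 to 11 in siMYBL2, 0 to 0 in siFOXM1, 1 to 11 in siBoth, 6 to 10 in FDI6, 7 to 11 in siControl and 13 to 18 in siControl_Both against control_FDI6, 6 to 12 between the scrambled controls, 8 to 11 in siMYBL2 against siFOXM1, 0 to 0 in siBoth minus siMYBL2 and 3 to 6 in FDI6 minus siFOXM1. The cause of these changes was not tested. No called value changed sign under the alternatives run. The filter on low counts left 4 members untested in every treatment comparison.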

Other observations

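Antigen presentation by MHC class I, which interferon also induces, was read from 15 genes not described above, all 15 tested in each treatment comparison. After siMYBL2, HLA-F, a non-classical class I chain, rose (log2 fold change 0.96 ± 0.28, adjusted p = 0.0437) as the 1 call, where 4.38% of all genes rose. With the replicate block HLA-B and PSMB8, an immunoproteasome subunit, rose as well, where 7.68% of all genes rose. After siFOXM1 0 of 15 were called by edgeR or DESeq2, with 1 at an unadjusted p under 0.05. After siBoth 0 of 15 were called by edgeR and PSMB8 by DESeq2, with 4 at an unadjusted p under 0.05 and 14 of 15 values above 0. With the block PSMB8, PSMB9, PSMB10 and ERAP2 rose, where 6.62% of all genes rose. After FDI6, PSMB9 fell by 0.70 on the log2 scale (adjusted p = 0.00124) and no gene rose, where 8% of all genes rose and 5.77% fell. The median log2 fold changes of the list were 0.25, -0.0064, 0.29 and -0.076 in that order.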
